A study of Mus musculus with 6 samples.

Results

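Glycosaminoglycans are long sulfated sugar chains carried by proteoglycans. The 40 genes described here encode enzymes and transporters that build them: the linker to the core protein, the chondroitin, dermatan and heparan sulfate chains, and the supply of sugar nucleotides and sulfate. They were chosen by name, and all 40 were found among the 56748 genes of the deposited tables. The tibiae came from female mice aged 12 weeks. Of 6 libraries 3 carried the genotype Col1a1+/-, with 1 altered allele of this type I collagen gene, and 3 were wild type (labelled WT or wt), with no treatment named in the labels. Both groups were prepared alike: marrow was flushed out, the bone was frozen and disrupted, and polyadenylated RNA was sequenced. The labels name neither the strain nor how the Col1a1 allele was made. Whether the samples of a genotype came from separate animals is not stated, and the p-values therefore reflect the spread among the libraries, part of which may be technical. The study's title names a mouse model of osteogenesis imperfecta type I, an inherited disease of fragile bone.

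A glycosaminoglycan chain starts with a linker of xylose, galactose and glucuronic acid on a serine of the core protein. Where N-acetylgalactosamine is added next the chain becomes chondroitin sulfate, which an epimerase can turn into dermatan sulfate, and where N-acetylglucosamine is added it becomes heparan sulfate. Chondroitin sulfate on aggrecan gives growth plate cartilage its swelling pressure, heparan sulfate binds growth factors at cell surfaces and in matrix, and the sulfate on all these chains is donated by the activated carrier PAPS.

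In the Col1a1+/- tibia 8 of the 40 genes rose and 0 fell at an adjusted p under 0.05 (edgeR), where 1.43% of all 18514 tested genes rose and 2.91% fell. At an unadjusted p under 0.05, 21 of the 40 were higher and 1 lower, where 9.59% of all tested genes were higher and 13.2% lower. Chondroitin genes accounted for 4 of the 8, Chsy1, Chpf2, Chst11 and Chst13, and heparan genes for 1, Ext2. The other 3 were the linker enzyme gene B4galt7, the sugar nucleotide gene Ugdh and the PAPS synthase gene Papss2. The median log2 fold change, Col1a1+/- over wild type, was 0.42 over the 16 chondroitin and dermatan genes and 0.13 over the 12 heparan genes, against -0.01 over all tested genes. With libraries scaled on osteocyte marker genes these medians turned to -0.21 and -0.56, against -0.66 over all genes, and edgeR called 0 of the 40 genes higher and 1, Extl1, lower.

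The calls depended on which libraries were kept, for these genes and for all genes. Of the 40 genes, edgeR called 0 without Col1a1+/- replicate 1, Col1a1+/- replicate 3, wild-type replicate 2 or wild-type replicate 3. In that order, 16, 17, 19 and 16 of the 40 were at an unadjusted p under 0.05, both directions together. Among all tested genes 3275 of 19063, 3111 of 19225, 3783 of 19139 and 3239 of 19123 were. Of all tested genes edgeR then called 0, 32, 1 and 0 higher and 0, 12, 7 and 0 lower, in the same order. With all libraries it called 265 higher and 538 lower. Of the 40 genes 5 were called higher without Col1a1+/- replicate 2. Without wild-type replicate 1 it called 10 higher and 1 lower. The log2 fold changes moved less than the calls: that of Chsy1 lay between 0.57 and 0.61 with any 1 library left out.

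Total counts were 26.8 to 32.4 M reads per library, and the 40 genes took 0.171% to 0.191% of them in Col1a1+/- and 0.127% to 0.154% in wild type. All 40 passed the filter on low counts, with 22 to 3775 reads per gene and library. Col1a1 itself had normalised counts, per 1 M counts (CPM), of 61150, 52880 and 59600 in Col1a1+/- and of 36810, 61350 and 54800 in wild type, so its level (log2 fold change 0.18, adjusted p = 0.78) did not check the labels. Its ratio to Col1a2 was 0.775 to 0.836 in Col1a1+/- and 1.25 to 1.32 in wild type. Markers of some other tissues and of bone cells differed with the genotype. Of all tested genes 1.43% rose and 2.91% fell, and at an unadjusted p under 0.05 9.59% were higher and 13.2% lower. Cartilage markers, 16 genes that include Col2a1, Acan and Col10a1, took 0.735% to 0.94% of counts in Col1a1+/- and 0.331% to 0.471% in wild type, and 6 of them rose and 0 fell. Col11a2 took the most counts of these 16 genes in every library and was not called (edgeR adjusted p = 0.0837). Osteoblast markers, 14 genes, took 8.2% to 9.18% of counts in Col1a1+/- and 3.79% to 5.41% in wild type, and 9 rose and 0 fell. Most of this share was Col1a2, at 73120, 68190 and 72430 CPM in Col1a1+/- and 27900, 49100 and 43110 CPM in wild type. Col1a2 itself was not called (edgeR adjusted p = 0.159). The 13 osteocyte markers, of which 12 were tested, took 0.187% to 0.248% in Col1a1+/- and 0.114% to 0.172% in wild type, with 0 called by edgeR and 2 higher at an unadjusted p under 0.05. Only 1 of these 12 (8.33%) was higher without overlap of the genotypes, against 14.0% of all tested genes. The 12 osteoclast markers took 0.785% to 0.995% in Col1a1+/- and 0.537% to 0.651% in wild type, with 0 called and 8 higher at an unadjusted p under 0.05. The 8 macrophage markers took 0.0741% to 0.088% in Col1a1+/- and 0.0532% to 0.0663% in wild type, with 0 called and 5 higher at an unadjusted p under 0.05. Skeletal muscle markers, 24 genes, took 2.13% to 4.29% of counts in Col1a1+/- and 6.67% to 8.37% in wild type, and 12 fell and 0 rose. The 12 neutrophil markers took 0.105% to 0.173% in Col1a1+/- and 0.149% to 0.624% in wild type, with 0 called and 4 lower at an unadjusted p under 0.05. Shares of tendon, erythroid, mast cell, endothelial and adipocyte markers overlapped between the genotypes. No marker of these lists was at 0 in all libraries. Their part in the results below was not tested, and in RNA of disrupted bone a change in the number of cells of a type and a change in RNA per cell cannot be told apart.

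**Figure D1:**
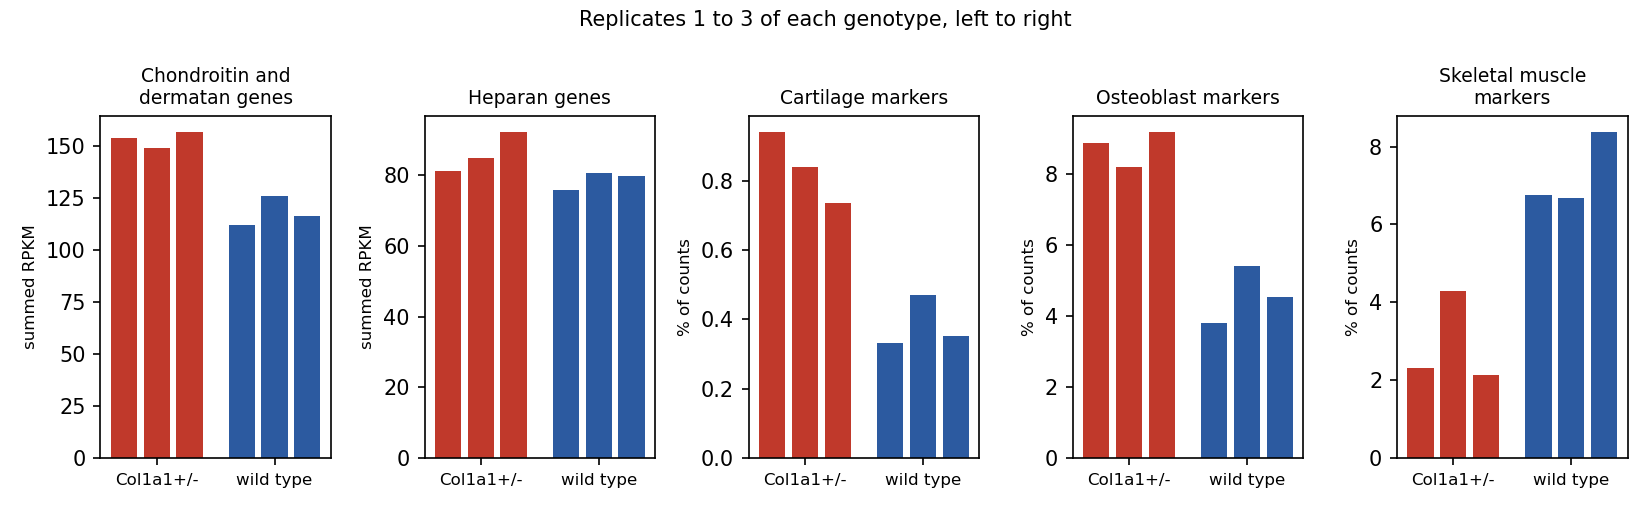
Summed RPKM, which is CPM per kilobase of exon, of the 16 chondroitin and dermatan genes and of the 12 heparan genes, and the share of counts in percent of cartilage, osteoblast and skeletal muscle markers, with 1 bar per library and Col1a1+/- on the left. The chondroitin and dermatan sum was 149.2 to 156.7 RPKM in Col1a1+/- and 111.9 to 125.9 RPKM in wild type with TMM scaling. Cartilage and osteoblast shares were higher and muscle shares lower in each Col1a1+/- library than in any wild-type library. Most of the osteoblast share was Col1a2.

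Promoter sequences are shown for 4 of the genes that rose, so that genes of different steps that moved together can be compared at their starts: Ugdh from sugar supply, Chsy1 from chondroitin polymerisation, Chst11 from chondroitin sulfation and Ext2 from heparan polymerisation. RefSeq promoters on GRCm38.p6, an earlier build than that of the counts, matched 33 of the 40 genes by symbol. The 250 bases before each start were searched on both strands for CACGTG, known as the E-box, for GGGCGG, known as the GC box, for the CCAAT box, named by its letters, and for TGTGGT, the core of the sites of RUNX factors, which direct osteoblast and chondrocyte maturation. No motif contains another. The windows printed lie at chr5:65435843-65436092 (minus strand) for Ugdh, chr7:66109242-66109491 (plus strand) for Chsy1, chr10:82985247-82985496 (plus strand) for Chst11 and chr2:93822569-93822818 (minus strand) for Ext2, and capitals mark the matches.
Ugdh: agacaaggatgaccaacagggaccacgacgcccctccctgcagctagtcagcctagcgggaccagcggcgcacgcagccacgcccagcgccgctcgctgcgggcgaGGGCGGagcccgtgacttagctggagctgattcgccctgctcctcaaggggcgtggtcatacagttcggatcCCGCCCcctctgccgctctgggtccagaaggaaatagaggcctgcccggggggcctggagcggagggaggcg
Chsy1: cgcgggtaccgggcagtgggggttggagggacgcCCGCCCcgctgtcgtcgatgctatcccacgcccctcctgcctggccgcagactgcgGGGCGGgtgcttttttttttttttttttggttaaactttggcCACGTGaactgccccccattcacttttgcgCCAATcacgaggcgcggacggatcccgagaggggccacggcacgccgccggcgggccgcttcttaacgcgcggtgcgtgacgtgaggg
Chst11: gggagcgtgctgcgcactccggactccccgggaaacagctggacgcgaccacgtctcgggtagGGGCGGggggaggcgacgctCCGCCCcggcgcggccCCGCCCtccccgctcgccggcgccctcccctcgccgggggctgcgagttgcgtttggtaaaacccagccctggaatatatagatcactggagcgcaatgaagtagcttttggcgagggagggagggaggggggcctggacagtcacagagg
Ext2: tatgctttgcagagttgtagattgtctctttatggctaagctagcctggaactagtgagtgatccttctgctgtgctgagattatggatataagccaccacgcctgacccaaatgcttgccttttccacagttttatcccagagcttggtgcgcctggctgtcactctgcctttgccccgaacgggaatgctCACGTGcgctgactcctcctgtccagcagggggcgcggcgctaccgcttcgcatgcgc
The GC box matched 2 times in the Ugdh window, 2 times in that of Chsy1 and 3 times in that of Chst11, and did not match in that of Ext2. The E-box matched in the Chsy1 and Ext2 windows, 1 time each, and the CCAAT box 1 time in that of Chsy1. Some genes have several starts, whose windows can overlap, so the 33 genes gave 40 windows. A GC box was found in 26 of these 40 windows (65%), in 14 of 17 chondroitin and dermatan windows (82.4%) and in 5 of 11 heparan windows (45.5%), against 32.7% of 32817 promoters. In the 10 windows of the 8 genes that rose it was found in 5 (50%), the CCAAT box also in 5, the E-box in 2 (20%) and the RUNX core in 1 (10%), with a median GC content of 58.6%. Median GC content was 65.4% in the 40 windows and 52.4% over all promoters. The E-box was found in 4 of the 40 windows (10%), against 6.02% of all promoters, and the CCAAT box in 15 (37.5%), against 33.8%. The RUNX core was found in 2 of the 40 windows (5%), against 14% of all promoters. These matches describe letters only.

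The linker is built by the xylosyltransferases Xylt1 and Xylt2, the galactosyltransferases B4galt7 and B3galt6 and the glucuronyltransferase B3gat3, while the kinase Fam20b phosphorylates its xylose. Of these 6 genes 1 rose, B4galt7 (chromosome 13, 55747709 to 55758256, GRCm39, plus strand). B4galt7 had 30.3, 27.9 and 32.3 CPM in Col1a1+/- libraries, against 22, 22.4 and 20.1 CPM in those of wild type. The genotypes did not overlap, and the log2 fold change was 0.49 (SE 0.11, adjusted p = 0.0464). Xylt1, whose product adds the first sugar, had 39.6, 43.8 and 28.5 CPM in Col1a1+/- libraries, against 26.35, 17.5 and 20.6 CPM in those of wild type. Its log2 fold change was larger, at 0.79, but with a wider spread (SE 0.20, adjusted p = 0.0576). Its partner Xylt2 stood at 0.32 (adjusted p = 0.176), B3galt6 at 0.40 (adjusted p = 0.308), and both overlapped between genotypes. B3gat3 and Fam20b lay near 0 and overlapped. B3gat3, at 27.4 ± 1.9 counts per kilobase of exon scaled to depth (RPKM) in Col1a1+/- and 25.9 ± 1.98 RPKM in wild type, had the highest level per length of the 40 genes, with a log2 fold change of 0.08 (SE 0.10). Fam20b was at -0.06 (SE 0.09).

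Sugar nucleotides for the chains come from Ugdh, which makes UDP-glucuronic acid, and Uxs1, which makes UDP-xylose from it, and Slc35d1 carries UDP-sugars into the endoplasmic reticulum. Of these 3 genes 1 rose. Ugdh (chromosome 5, 65570564 to 65593292, GRCm39, minus strand) had 85.7, 77.5 and 79 CPM in Col1a1+/- libraries, against 59.1, 54.1 and 56.6 CPM in those of wild type. All 3 Col1a1+/- libraries were above all 3 wild-type libraries, with a log2 fold change of 0.51 ± 0.10 (SE) at adjusted p = 0.0312. Uxs1 did not overlap between the genotypes either, at 36.2 ± 2.71 CPM in Col1a1+/- libraries, against 28.2 ± 4.35 CPM in those of wild type (SD, n = 3 each), but did not pass (log2 fold change 0.36, adjusted p = 0.146). Slc35d1, whose loss in mice and humans causes a skeletal dysplasia, was at -0.08 (SE 0.14).

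**Figure D2:**
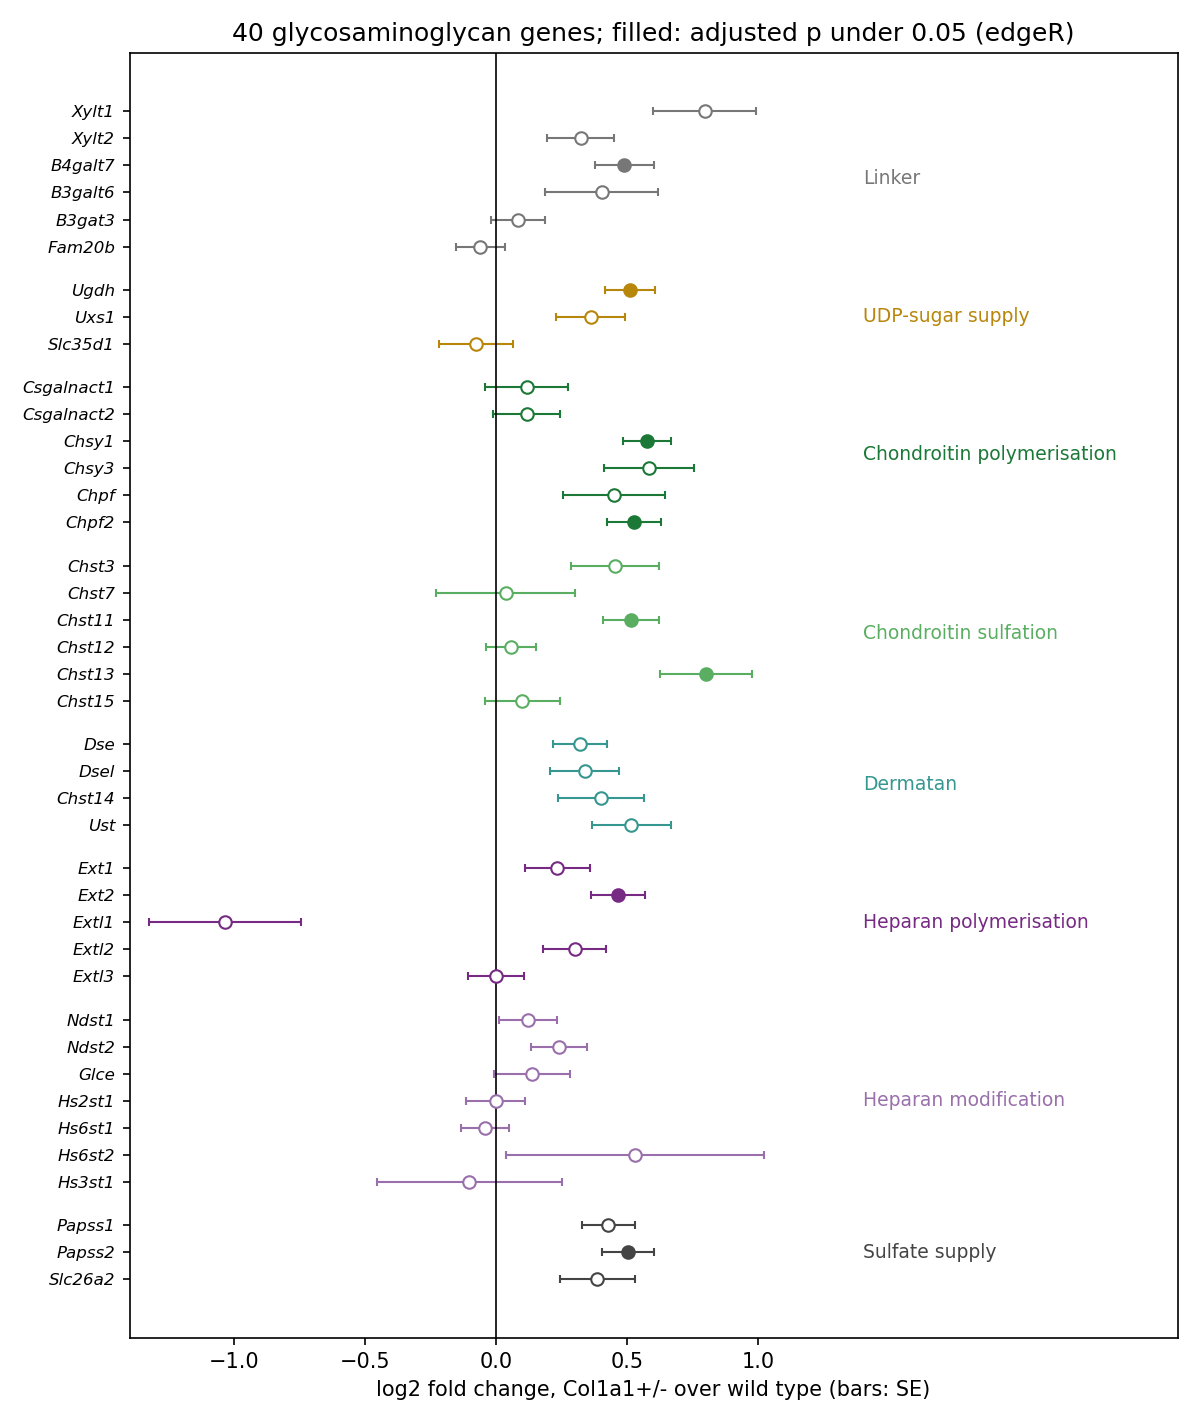
Log2 fold change, Col1a1+/- over wild type, of each of the 40 genes with its SE, ordered by role, with filled points for adjusted p under 0.05. All 16 chondroitin and dermatan genes lay above 0 with TMM scaling, from 0.04 for Chst7 to 0.80 for Chst13, and 15 of them below 0 with libraries scaled on osteocyte genes, while the heparan genes lay on both sides of 0, from -1.04 for Extl1 to 0.53 for Hs6st2.

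The chondroitin chain is started by the N-acetylgalactosaminyltransferases Csgalnact1 and Csgalnact2 and lengthened by complexes of the synthases Chsy1 and Chsy3 with the polymerising factors Chpf and Chpf2. Of these 6 genes 2 rose, both among the lengthening genes. Chsy1 (chromosome 7, 65759263 to 65823546, GRCm39, plus strand) had the smallest p of the 40 genes. It stood at 91.9, 86.4 and 94 CPM in Col1a1+/- libraries, against 59.9, 62.4 and 60.3 CPM in those of wild type. The gap between genotypes was wide beside the spread within them, and the log2 fold change was 0.58 (SE 0.09, adjusted p = 0.0238), a fold of 1.49. Chpf2 (chromosome 5, 24791739 to 24799554, GRCm39, plus strand) had 58.95, 60.8 and 68.8 CPM in Col1a1+/- libraries, against 42.3, 46.1 and 42.5 CPM in those of wild type. Its log2 fold change was 0.53 (SE 0.10, adjusted p = 0.0333), with no overlap of the genotypes. Of its exon length 44.1% is shared with Smarcd3 and Mir671, and reads there cannot be assigned, so its level is uncertain.

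Chsy3 had the same size of change as Chsy1 at a lower level, with 9.56, 13 and 12 CPM in Col1a1+/- libraries, against 7.69, 8.26 and 7.14 CPM in those of wild type (log2 fold change 0.58, SE 0.17, adjusted p = 0.0821). Chpf had 81.1, 78.6 and 78.7 CPM in Col1a1+/- libraries, against 40.6, 74.4 and 59.8 CPM in those of wild type. Here the Col1a1+/- libraries were close together and the wild-type libraries far apart (log2 fold change 0.45, adjusted p = 0.216). The lowest was wild-type replicate 1, which also stood apart in neutrophil markers (0.624% of its counts, where no other library was above 0.173%), and without it the log2 fold change of Chpf was 0.28. The chain-starting genes stood lower in fold: Csgalnact1 was at 0.115 (SE 0.16) and Csgalnact2 at 0.12 (SE 0.13), and both overlapped between genotypes. Per length, Chsy1 at 21.7 ± 0.942 RPKM and Chpf at 20.6 ± 0.365 RPKM were the most abundant of this group in Col1a1+/-, and Chsy3 at 1.6 ± 0.247 RPKM the least. In wild type Chpf, at 15.1 ± 4.4 RPKM, and Chsy1, at 14.6 ± 0.328 RPKM, did not differ beyond their spread.

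**Figure D3:**
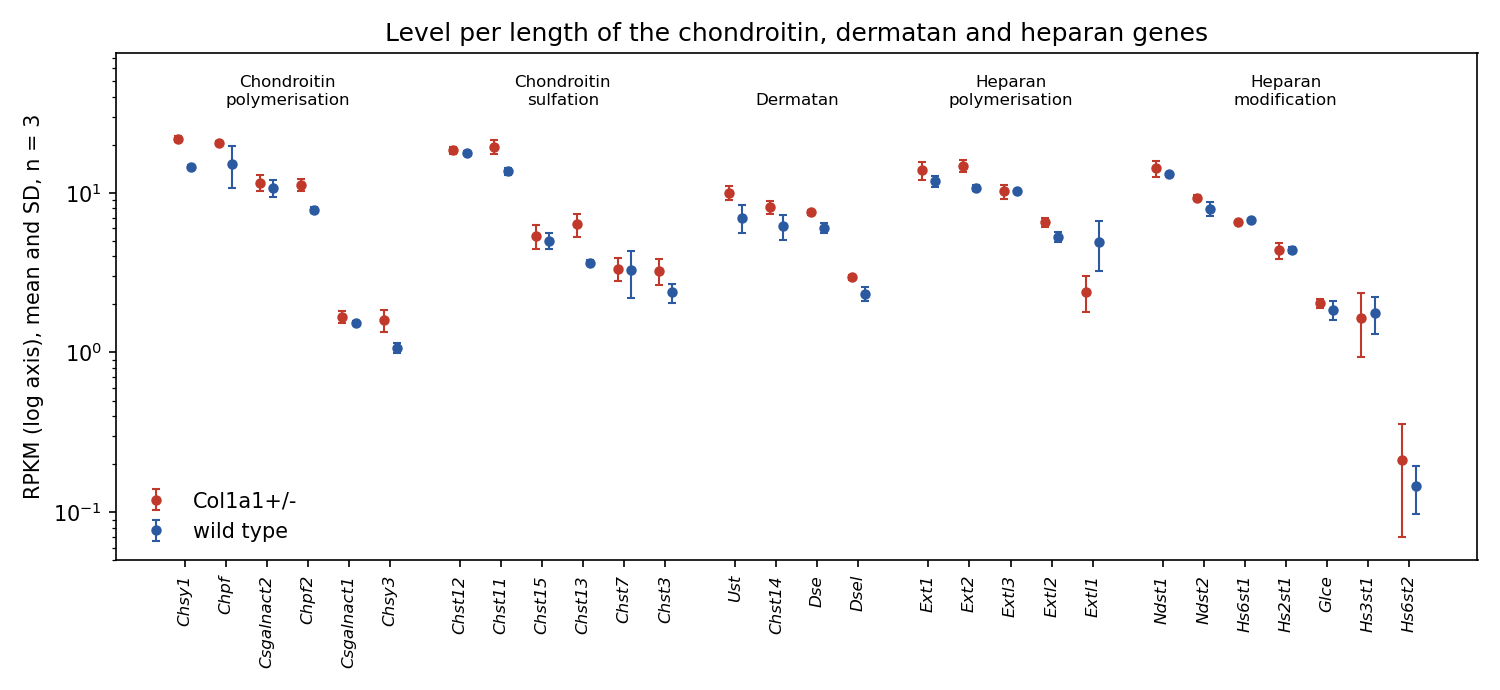
Mean RPKM with SD (n = 3 per genotype, log axis) of the 28 chondroitin, dermatan and heparan genes, with Col1a1+/- to the left of wild type for each gene. Levels ran from 0.146 RPKM for Hs6st2 in wild type to 21.7 RPKM for Chsy1 in Col1a1+/-.

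Chondroitin is sulfated on carbon 4 of N-acetylgalactosamine by the products of Chst11, Chst12 and Chst13 and on carbon 6 by those of Chst3 and Chst7, and Chst15 adds a 6-sulfate to units that already carry a 4-sulfate. Of these 6 genes 2 rose, both for carbon 4. Chst11 (chromosome 10, 82821332 to 83031734, GRCm39, plus strand), whose product sulfates cartilage chondroitin in mice, had 102.8, 100.2 and 119 CPM in Col1a1+/- libraries, against 72.1, 79.45 and 74 CPM in those of wild type. The genotypes were apart by more than their own ranges, with a log2 fold change of 0.51 ± 0.11 (SE) at adjusted p = 0.0382. Chst13 (chromosome 6, 90285331 to 90302167, GRCm39, minus strand) had, with Xylt1, the largest log2 fold change of the genes above 0, at a low level. It stood at 12.5, 9.78 and 9.25 CPM in Col1a1+/- libraries, against 5.77, 6.12 and 6.235 CPM in those of wild type (log2 fold change 0.80, SE 0.18, adjusted p = 0.0432). The other carbon 4 gene, Chst12, had 44.7, 45.25 and 41.1 CPM in Col1a1+/- libraries, against 43.2, 41.4 and 41.5 CPM in those of wild type. Its log2 fold change of 0.06, with an interval of 2 SE from -0.13 to 0.24, left out the size seen for Chst11.

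The carbon 6 genes did not pass. Chst3, mutated in a human skeletal dysplasia with joint dislocations, had 25.3, 20.7 and 17.4 CPM in Col1a1+/- libraries, against 17.9, 14.4 and 14.1 CPM in those of wild type (log2 fold change 0.45, adjusted p = 0.151), overlapping slightly. Chst7 was at 0.04 (SE 0.27). Chst15 was at 0.10 (SE 0.14), and 17.9% of its exon length is shared with another gene on the opposite strand. The ratio of the summed carbon 4 genes to Chst3 and Chst7, per kilobase of exon, was 6.69, 6.71 and 6.74 in Col1a1+/-, compared with 7.21, 5.56 and 6.1 in wild type. The Col1a1+/- values lay inside the wild-type range. With Chst15 added to the carbon 6 genes, an alternative chosen after seeing the data, it was 3.84, 3.88 and 3.43 in Col1a1+/-, compared with 3.36, 3.29 and 3.23 in wild type. These did not overlap, so whether the genotypes separate depends on whether Chst15, whose count is uncertain, is included.

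Dermatan sulfate arises from chondroitin by the epimerases Dse and Dsel, followed by 4-O-sulfation by Chst14, and Ust sulfates carbon 2 of the uronic acid in both chains. None of these 4 genes passed, yet in each the genotypes did not overlap, where 14.0% of all tested genes were higher without overlap. Ust had 46.6, 41.4 and 50.5 CPM in Col1a1+/- libraries, against 28.4, 39.9 and 28.7 CPM in those of wild type (log2 fold change 0.51, adjusted p = 0.0837). Wild-type replicate 2 lay close to the lowest Col1a1+/- library. The log2 fold changes of Dse, Dsel and Chst14 were 0.32, 0.34 and 0.40 (adjusted p = 0.107, 0.168 and 0.187). Over the whole chondroitin and dermatan branch 10 of 16 genes were higher without overlap and 0 lower.

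Heparan sulfate is polymerised by the Ext1 and Ext2 complex, Extl3 and Extl2 act on the first N-acetylglucosamine of the chain, and Extl1 is a related transferase. Of these 5 genes 1 rose. Ext2 (chromosome 2, 93491373 to 93652913, GRCm39, minus strand) had 105, 101.5 and 117.9 CPM in Col1a1+/- libraries, against 74.55, 80.6 and 80 CPM in those of wild type. The genotypes did not overlap, with a log2 fold change of 0.46 ± 0.10 (SE) at adjusted p = 0.0422. Its partner Ext1, which with Ext2 is mutated in human multiple osteochondromas, had 102.7, 104.8 and 128.7 CPM in Col1a1+/- libraries, against 86.2, 101.8 and 98.1 CPM in those of wild type. The nearest libraries of the genotypes differed by little, and the log2 fold change of 0.23 did not pass (SE 0.12, adjusted p = 0.303). Extl2 stood at 0.30 (adjusted p = 0.177) and Extl3 at -0.0022 (SE 0.11), with 61.8 ± 6.46 CPM in Col1a1+/- libraries, against 61.8 ± 1.47 CPM in those of wild type (SD, n = 3 each).

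Extl1 lay on the other side of 0 from Ext1, Ext2 and Extl2. Extl1 (chromosome 4, 134083683 to 134111161, GRCm39, minus strand) had 11.8, 12.1 and 7.38 CPM in Col1a1+/- libraries, against 14.1, 21.1 and 28.9 CPM in those of wild type. All Col1a1+/- libraries were below all wild-type libraries, with a log2 fold change of -1.04 ± 0.29 (SE) at adjusted p = 0.0811, and it passed as lower by DESeq2 and with library totals in place of TMM. With the muscle marker score as a covariate its log2 fold change was 0.11 (edgeR, adjusted p = 0.97). Muscle marker shares did not overlap between the genotypes, so that fit cannot tell muscle content and genotype apart. For every 1000 counts of the 24 muscle markers it had 0.526, 0.282 and 0.366 counts in Col1a1+/- and 0.23, 0.294 and 0.308 counts in wild type, which overlapped.

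**Figure D4:**
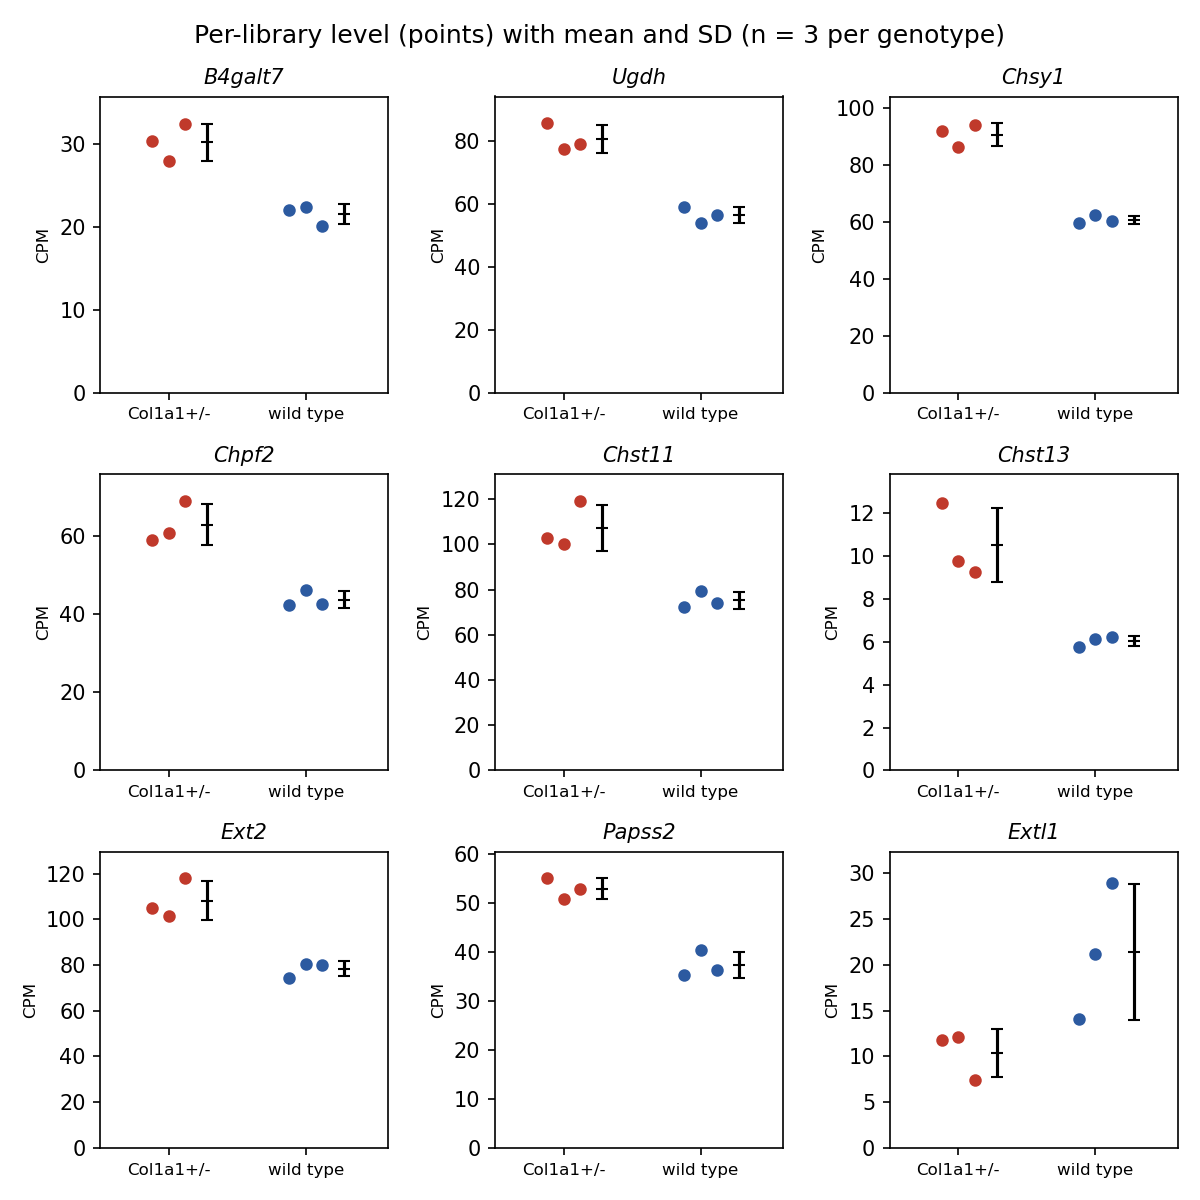
Level in CPM, from 0, of the 8 genes that rose and of Extl1 in each library, with Col1a1+/- on the left and the mean and SD beside the points. With the TMM scaling shown, the genotypes do not overlap in any panel, and Extl1 is the 1 gene of these 9 that is lower in Col1a1+/-.

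Heparan chains are then modified by the N-deacetylase and N-sulfotransferases Ndst1 and Ndst2, the epimerase Glce and the O-sulfotransferases Hs2st1, Hs6st1, Hs6st2 and Hs3st1. Of these 7 genes 0 rose and 0 fell, with 0 at an unadjusted p under 0.05 and, by DESeq2 and limma-voom, 0 called. Over all tested genes edgeR called 1.43% higher and 2.91% lower, and 9.59% and 13.2% at an unadjusted p under 0.05. For so few genes, 0 called is near the share over all genes. Ndst1, the heparan gene with the highest mean level per length over all libraries, at 14.2 ± 1.68 RPKM in Col1a1+/- and 13.1 ± 0.309 RPKM in wild type, had 106.5, 113.5 and 133.3 CPM in Col1a1+/- libraries, against 111, 105.9 and 107.8 CPM in those of wild type. Its genotypes overlapped (log2 fold change 0.12, SE 0.11). Ndst2 stood at 0.24 (adjusted p = 0.2285), higher in each Col1a1+/- library than in any wild-type one, and Glce at 0.14 (SE 0.15).

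Hs6st1 varied least of all between libraries, with 36, 36.6 and 37 CPM in Col1a1+/- libraries, against 37.4, 37.8 and 37.7 CPM in those of wild type. It was lower in each Col1a1+/- library by a small amount (log2 fold change -0.04, with an interval of 2 SE from -0.23 to 0.14). Hs2st1, at -0.0027 (SE 0.11), overlapped. Hs6st2 and Hs3st1 had the fewest reads and the largest SE of the 40 genes. Hs6st2 had 27 to 84 reads per library in Col1a1+/- and 22 to 50 in wild type (log2 fold change 0.53, SE 0.49), and Hs3st1 had 55 to 144 reads in Col1a1+/- and 92 to 140 in wild type (log2 fold change -0.10, SE 0.35).

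Set side by side within each library, the chondroitin and dermatan branch outweighed the heparan branch more in Col1a1+/-. The ratio of summed counts per kilobase of exon was 1.9, 1.75 and 1.7 in Col1a1+/-, compared with 1.47, 1.56 and 1.46 in wild type. It did not overlap between the genotypes and is the same under any scaling of the libraries. It averaged 1.78 ± 0.103 in Col1a1+/- libraries and 1.5 ± 0.0553 in wild-type libraries (SD, n = 3 each), which is 1.19 times higher. No test was made of a score over chosen genes. The parts of the ratio were a summed level of 153.3 ± 3.8 RPKM in Col1a1+/- and 118 ± 7.16 RPKM in wild type for the 16 chondroitin and dermatan genes, and of 86.1 ± 5.64 RPKM in Col1a1+/- and 78.8 ± 2.61 RPKM in wild type for the 12 heparan genes. In counts not divided by length the ratio was 1.24, 1.16 and 1.1 in Col1a1+/-, compared with 0.987, 1.02 and 0.959 in wild type. The size of the ratio therefore depends on gene number and length, while the genotypes stayed apart. In the same libraries cartilage, osteoblast, osteocyte, osteoclast and macrophage markers took a higher share of counts and muscle markers a lower one, as given above. Of the osteocyte, osteoclast and macrophage markers 0 were called one by one.

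With all listed genes counted, both steps of the pathway showed the higher ratio. For polymerisation genes alone the ratio was 1.44 ± 0.109 in Col1a1+/- and 1.18 ± 0.0701 in wild type, and for sulfation and epimerisation genes alone 2.21 ± 0.131 in Col1a1+/- libraries and 1.87 ± 0.0566 in wild-type libraries (SD, n = 3 each), again without overlap. With Extl1 left out of the whole heparan branch the ratio was 1.84 ± 0.118 in Col1a1+/- and 1.6 ± 0.0597 in wild type. The polymerisation ratio per library was 1.53, 1.47 and 1.32 in Col1a1+/-, compared with 1.18, 1.26 and 1.12 in wild type. Extl1, lower in Col1a1+/-, is in its denominator, and a separation of that step without Extl1 is not shown. The single gene pairs Chst11 to Ndst1 and Chsy1 to Ext1 were chosen after their values were seen. Each sets a chondroitin gene that rose over a heparan gene that was not called, so the choice fixed their direction. Other pairs went the other way: the log2 fold change of Chst12 (0.06) was below that of Ext2 (0.46). Chst11 to Ndst1 stood at 1.45, 1.32 and 1.34 in Col1a1+/-, compared with 0.973, 1.12 and 1.03 in wild type, so that Chst11 was above Ndst1 per length in all Col1a1+/- libraries and close to it in wild type. Chsy1 to Ext1 stood at 1.73, 1.59 and 1.41 in Col1a1+/-, compared with 1.34, 1.19 and 1.19 in wild type. Within the heparan polymerase, Ext2 to Ext1 was 1.07 ± 0.0591 in Col1a1+/- libraries and 0.908 ± 0.041 in wild-type libraries (SD, n = 3 each).

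**Figure D5:**
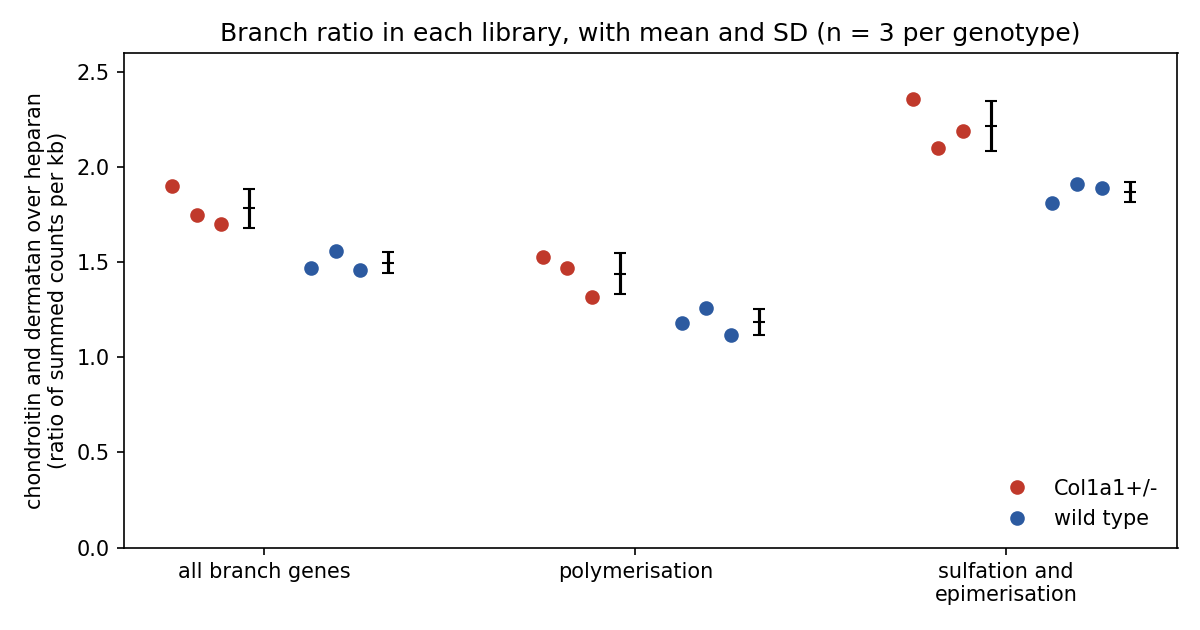
Ratio of summed counts per kilobase of exon of chondroitin and dermatan genes to heparan genes in each library, for all branch genes, polymerisation genes and sulfation and epimerisation genes, with the mean and SD beside the points. For all branch genes the Col1a1+/- libraries sit between 1.7 and 1.9 and the wild-type libraries between 1.46 and 1.56.

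Sulfate reaches the Golgi enzymes through Slc26a2, which brings sulfate into the cell, and the PAPS synthases Papss1 and Papss2. Of these 3 genes 1 rose. Papss2 (chromosome 19, 32573190 to 32644587, GRCm39, plus strand), whose loss in mice and humans shortens the skeleton, had 55, 50.7 and 52.9 CPM in Col1a1+/- libraries, against 35.3, 40.4 and 36.2 CPM in those of wild type. It did not overlap between genotypes, with a log2 fold change of 0.50 ± 0.10 (SE) at adjusted p = 0.0341. Papss1 was close behind at 71.8, 64 and 66 CPM in Col1a1+/- libraries, against 47.7, 54.45 and 47.9 CPM in those of wild type (log2 fold change 0.43, SE 0.10, adjusted p = 0.0523), and passed by DESeq2. The counts per kilobase of Papss2 over those of Papss1 were 0.645 ± 0.0154 in Col1a1+/- libraries and 0.613 ± 0.00731 in wild-type libraries (SD, n = 3 each). Slc26a2, mutated in human diastrophic dysplasia, had 41.5, 35.6 and 50.1 CPM in Col1a1+/- libraries, against 36, 32.1 and 29.3 CPM in those of wild type. It overlapped between genotypes (log2 fold change 0.39, adjusted p = 0.152).

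Over all 40 genes 20 were higher and 2 lower without overlap of the genotypes, where 14.0% of all tested genes were higher and 14.5% lower without overlap. Of the 12 heparan genes 4 were higher and 2, Extl1 and Hs6st1, lower without overlap. Spread between libraries was modest, with a median coefficient of variation over the 40 genes of 9.12% in Col1a1+/- and 7.68% in wild type. With the muscle score as a covariate edgeR called 0 of the 40 genes, as it called 0 genes in all (1161 at an unadjusted p under 0.05), and the branch medians were 0.33 for chondroitin and dermatan genes and 0.10 for heparan genes. Muscle markers differed with the genotype, so a loss of calls in that fit cannot be assigned to muscle.

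Proteoglycan core proteins carry the chains, and some of their genes rose on both sides. Of 12 tested genes for chondroitin and dermatan sulfate core proteins 4 rose and 0 fell, where 1.43% of all tested genes rose and 2.91% fell. The median log2 fold change of these 12 genes was 0.77, against -0.01 over all tested genes. Acan, which encodes the cartilage proteoglycan aggrecan, had 224.5, 253.3 and 158.4 CPM in Col1a1+/- libraries, against 75.6, 91.5 and 60.4 CPM in those of wild type (log2 fold change 1.48, SE 0.21, adjusted p = 0.0218), and it is also 1 of the cartilage markers. Cspg4, which encodes the membrane proteoglycan NG2, rose by a log2 fold change of 0.70 (adjusted p = 0.0405). The other 2 that rose were Bgn, which encodes biglycan, and the low Spock1. Among members below 0, Srgn, which encodes the proteoglycan of blood cell granules, was at -0.65 (adjusted p = 0.305) and Spock2 at -0.08 (SE 0.19). Of 13 tested genes for heparan sulfate core proteins 2 rose and 0 fell, against the same 1.43% and 2.91%, with a median log2 fold change of 0.38. Sdc3, which encodes syndecan 3, had 459.4, 477.9 and 533.2 CPM in Col1a1+/- libraries, against 286, 335 and 258.6 CPM in those of wild type (log2 fold change 0.74, SE 0.14, adjusted p = 0.0321), without overlap. Gpc4, which encodes glypican 4, rose by 0.58 (SE 0.12, adjusted p = 0.0344).

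Genes that edit and degrade the chains did not pass one by one. The 16 genes listed for degradation of the chains had 0 called genes (9 higher at an unadjusted p under 0.05, against 9.59% of all tested genes, and 10 higher without overlap, against 14.0%) and a median log2 fold change of 0.32. Osteoclast and macrophage markers, whose shares are given above, were higher in the same libraries, and their part was not tested. Glb1, a beta-galactosidase, stood at 0.39 (adjusted p = 0.0708), Ids, a heparan and dermatan sulfatase, at 0.36 (adjusted p = 0.08), and Sumf2 at -0.01. Of 3 tested genes that act on finished heparan chains 0 were called (2 higher at an unadjusted p under 0.05, against 9.59%). Sulf1 was at 0.41 (adjusted p = 0.118) and Sulf2 at 0.39 (adjusted p = 0.136), both endosulfatases, and Hpse, which encodes heparanase, at -0.48 (adjusted p = 0.468). Of 8 further heparan sulfotransferases 4 were tested and 0 called (2 higher and 1 lower at an unadjusted p under 0.05, against 9.59% and 13.2% of all tested genes). Hs3st3a1 had 4.64, 3 and 1.84 CPM in Col1a1+/- libraries, against 0.961, 1.38 and 1.25 CPM in those of wild type (log2 fold change 1.41, SE 0.38, adjusted p = 0.0653). Hs3st3b1 was at 0.89 (adjusted p = 0.0871), Hs3st5 at -0.80 (adjusted p = 0.1215) and Ndst3 at -0.09 (SE 1.06). Of 8 further genes of the linker and of sugar and sulfate supply 0 passed (2 higher at an unadjusted p under 0.05, against 9.59%), with Pxylp1, the phosphatase that removes the xylose phosphate of the linker, at 0.45 (adjusted p = 0.08). Bpnt2, a phosphatase that clears the by-product of PAPS, was at -0.13 (adjusted p = 0.481), and Slc26a1, a sulfate transporter, at -0.36 (adjusted p = 0.639).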

How the data were processed

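The measurements are RNA-seq read counts in 6 libraries of tibia flushed of marrow, 3 Col1a1+/- and 3 wild type. The deposited files hold raw counts per gene with no normalization, made by featureCounts 2.0.3 with the Ensembl release 107 exons on GRCm39, per the file headers. As recorded there, both mates of a pair are counted singly, strand is ignored (antisense genes that overlap are therefore not separated) and reads that touch several genes are dropped. Trimmomatic 0.39, HISAT2 2.2.1 and SAMtools 1.20 are listed in the submitters' processing notes, without settings.

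Symbols came from a mouse annotation matched by gene identifier (91.8% of identifiers named), and coordinates are those of the deposited files. The members, lists, tests and alternatives were chosen with earlier results of these data known. Genes were kept by filterByExpr (18514, holding 99.87% to 99.9% of counts) and scaled by TMM. The test was edgeR's quasi-likelihood F test with robust dispersion (edgeR 4.0.16, R 4.3.3), which is two-sided. The model held genotype alone, and p-values were adjusted by Benjamini-Hochberg over all genes tested, with a threshold of 0.05. SE is the absolute log2 fold change over the square root of F. CPM and RPKM are TMM-scaled, and RPKM divides by exon length in kilobases. The self-test on simulated data used the same fit. With 3 against 3 libraries an exact permutation test cannot give a p below 0.1, so none was used. All 40 members were named, and of each further list up to 4 genes, those with the 2 smallest p in each direction, besides genes that passed; 1 gene that this rule names is not reported here. DESeq2 1.42.0 and limma-voom (limma 3.58.1), other scalings, no filter, a replicate block, a muscle covariate and leaving out each library were alternatives. The osteocyte scale used the geometric mean of the 12 osteocyte markers tested. Library pairs of a genotype differed by 25.6 to 88.4 times the variance of counting alone, and none were duplicates. Total counts of 26.8 to 32.4 M reads keep counting error small for all but the lowest members.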

Additional observations from a re-analysis of the deposited data

How the results depend on the processing

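The higher median of the chondroitin and dermatan genes over that of the heparan genes kept its sign in all 14 alternative fits, with a difference of 0.16 to 0.38 on the log2 scale. The difference of the log2 ratio of the branches, Col1a1+/- minus wild type, was 0.25, from 0.21 to 0.29 without single libraries and 0.20 without Extl1, an alternative chosen after seeing the data. Calls depended on the processing, and the cause was not tested. Leaving out each library gave 0 to 594 genes higher and 0 to 1172 lower in all, 0 to 10 members higher and 0 to 1 lower, and branch medians of 0.34 to 0.47 for chondroitin and dermatan genes and 0.08 to 0.20 for heparan genes.

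Library totals gave 588 genes higher and 739 lower, 8 members higher and 1 lower, branch medians of 0.51 and 0.20, an all-gene median of 0.07, and log2 fold changes of 0.0195 for Fam20b, 0.0774 for Extl3, 0.083 for Hs2st1 and 0.0366 for Hs6st1. DESeq2 gave 788 genes higher and 1468 lower, with 12 members higher and 1 lower. No filter gave 577 genes higher and 895 lower, with 11 members higher. DESeq2 size factors and limma-voom kept the direction of all members. With the muscle covariate 0 genes were called in either direction, 0 of them members, the branch medians were 0.33 and 0.10, and log2 fold changes were -0.33 for B3galt6, 0.0853 for Fam20b, -0.32 for Chst15, 0.11 for Extl1, -0.0523 for Ndst1, -0.0841 for Glce, 0.77 for Hs3st1 and -0.22 for Slc26a2.

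Scaling on osteocyte genes, which moved the all-gene median to -0.66, gave 10 genes higher and 2580 lower, 0 members higher and 1 lower, and branch medians of -0.21 and -0.56. The log2 fold changes that changed sign were -0.30 for Xylt2, -0.17 for B4galt7, -0.24 for B3galt6, -0.54 for B3gat3, -0.15 for Ugdh, -0.30 for Uxs1, -0.52 for Csgalnact1, -0.56 for Csgalnact2, -0.0725 for Chsy1, -0.0651 for Chsy3, -0.11 for Chpf, -0.12 for Chpf2, -0.21 for Chst3, -0.54 for Chst7, -0.14 for Chst11, -0.60 for Chst12, -0.61 for Chst15, -0.34 for Dse, -0.29 for Dsel, -0.21 for Chst14, -0.0865 for Ust, -0.41 for Ext1, -0.19 for Ext2, -0.38 for Extl2, -0.56 for Ndst1, -0.39 for Ndst2, -0.56 for Glce, -0.18 for Hs6st2, -0.20 for Papss1, -0.13 for Papss2 and -0.30 for Slc26a2. Of all called genes 0.386% were then higher, against 33% with TMM and 44.3% with library totals.

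Leaving out single libraries changed the sign of Extl3 (-0.0535 to 0.0897), Hs2st1 (-0.0738 to 0.0779), Hs6st2 (-0.17 to 0.85), Slc35d1 (-0.17 to 0.0212), Chst7 (-0.18 to 0.25), Chst15 (-0.0221 to 0.21) and Hs3st1 (-0.40 to 0.22). Libraries share replicate numbers in the labels. Same-numbered libraries correlated at 0.107, 0.041 and -0.122, and those of unlike number at -0.198 to 0.194. With 3 libraries per genotype these values cannot decide whether the numbers pair them. The replicate block gave 37 genes higher, 89 lower and 0 members in either direction, with branch medians of 0.43 and 0.13. Hs6st2 and Hs3st1 have the fewest reads of these genes and vary most between Col1a1+/- libraries (coefficient of variation 67% and 43%).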
